A study of Rattus norvegicus with 18 samples.

Results

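The complement genes described here are C1qa, C1qb, C1qc, C1s, C2, C3, Cfp, C3ar1 and C5ar1, 9 of the 30643 genes listed at each time point. They were chosen by symbol, as components and receptors of the complement system that macrophages make or sense, and each symbol matched 1 row per time point. RNA was sequenced from CD11b/c-positive cells of the knee synovium of wild type male Sprague Dawley rats, which were 12 weeks old at surgery. OA was induced by transection of the anterior cruciate and medial meniscotibial ligaments, and in sham rats the joint was only opened. There were 5 OA and 5 sham libraries at 4-weeks after surgery, each a pool of 4 rats. At 12-weeks there were 4 OA and 4 sham libraries, each a pool of 3 rats.

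Complement is a cascade of blood and tissue proteins that tags particles for uptake by phagocytes and releases small inflammatory fragments. In the classical pathway C1q, assembled from A, B and C chains, binds immune complexes or dying cells. Its partner proteases C1r and C1s then cleave C4 and C2 to build the enzyme that splits C3. Properdin, encoded by Cfp, stabilizes the corresponding enzyme of the alternative pathway. The fragments C3a and C5a act through the receptors encoded by C3ar1 and C5ar1. Macrophages are a main source of C1q, whereas C1r and C1s are also made by fibroblasts.

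Recovered reads ranged from 4662344 to 17235069 per library at 4-weeks and from 10976114 to 18080503 at 12-weeks. Sham replicate 3 at 4-weeks was the shallowest library and listed the most genes above 0 (25919). The values below are normalized reads, that is, reads divided by a size factor for each library. On this scale 3 reads correspond to 2.06 to 6.96 at 4-weeks and 2.27 to 3.82 at 12-weeks. The 12 macrophage markers summed to between 104022 and 130616 normalized reads at 4-weeks and between 120465 and 172202 at 12-weeks. At each time point the lowest sum was that of sham replicate 3. The libraries of that number also had the highest mean log2 level of adipocyte markers, 7.64 at 4-weeks and 8.67 at 12-weeks. Whether this bears on their complement levels was not tested. The 13 fibroblast markers found summed to between 55931.6 and 124235 normalized reads at 4-weeks and between 68369.8 and 123372 at 12-weeks. The 5 endothelial markers found summed to between 24515 and 35796.2 at 4-weeks and between 24144.2 and 42167.7 at 12-weeks. RNA of fibroblast and of endothelial genes was thus present in the sorted fraction. In bulk RNA, fewer cells of a type and less RNA per cell cannot be told apart.

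The C1q chain genes lie side by side on chromosome 5 in the GRCr8 assembly, with C1qc between C1qb and C1qa. Their levels varied together across libraries, and for that reason the 250 bases upstream of the RefSeq starts of C1qa (GRCr8, chr5:154419934-154420183, minus strand) and C1qb (GRCr8, chr5:154407828-154408077, minus strand) are shown in the direction of transcription. Entries were found for 5 of the 9 genes, and C1qc had none. Capitals mark GAGGAA and GGAAGT, core letters of sites bound by ETS factors such as PU.1, or the same letters on the other strand (TTCCTC and ACTTCC).
C1qa: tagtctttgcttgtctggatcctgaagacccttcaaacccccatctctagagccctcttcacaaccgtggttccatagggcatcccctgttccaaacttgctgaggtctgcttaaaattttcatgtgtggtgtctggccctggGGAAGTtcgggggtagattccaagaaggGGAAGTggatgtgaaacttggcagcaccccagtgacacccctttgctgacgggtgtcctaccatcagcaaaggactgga
C1qb: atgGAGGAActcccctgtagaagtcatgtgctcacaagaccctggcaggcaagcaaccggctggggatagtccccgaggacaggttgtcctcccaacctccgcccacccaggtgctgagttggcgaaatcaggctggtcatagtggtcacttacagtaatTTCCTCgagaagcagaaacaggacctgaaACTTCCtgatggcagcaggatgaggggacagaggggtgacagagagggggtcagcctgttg
C1qa held GGAAGT at 2 places and no GAGGAA. C1qb held GAGGAA once on each strand and GGAAGT once on the other strand. GAGGAA was present in 23.3% and GGAAGT in 19.2% of 33469 rat promoter windows of this length. The AP-1 site TGACTCA, present in 4.05% of windows, and the core of the interferon-stimulated response element, present in 3.41%, were also searched on both strands and were in neither sequence. A match is a description of letters, and no binding was measured.

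The differences between OA and sham in the complement genes were small, and none passed the test across all genes. At both time points 7 of the 9 genes had a higher level in OA, and C3 and Cfp had a lower level. The 7 include C1qa, C1qb and C1qc, whose levels varied together, so the 9 genes are not independent. Of all tested genes, 57.1% at 4-weeks and 47.5% at 12-weeks were higher in OA. The median log2 fold change (OA minus sham) of the 9 genes was 0.13 at 4-weeks and 0.25 at 12-weeks, against 0.03 and -0.01 for all genes tested.

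In limma a gene was called at an absolute log2 fold change of at least 0.5 and a Benjamini-Hochberg adjusted p under 0.05. By this rule 0 of 9 complement genes were called at 4-weeks and 0 of 9 at 12-weeks (background 0% of 14861 and 0% of 14666 genes). At 4-weeks 4 of 9 had an unadjusted limma p under 0.05 (background 7.92%). Of these, C1s, C2 and C5ar1 were higher in OA (background 4.1%) and Cfp was lower (background 3.82%). At 12-weeks 4 of 9 had an unadjusted limma p under 0.05 (background 12.4%), and all of them, C1s, C2, C3ar1 and C5ar1, were higher in OA (background 5.75%). These genes changed with sham replicate 3 left out. Without it 5 of 9 had such a p at 4-weeks (background 10.4%), C1qb, C1s, C2 and C5ar1 being higher and Cfp lower in OA. At 12-weeks 3 of 9 did (background 12.9%), C1s and C5ar1 being higher and Cfp lower.

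DESeq2 on recovered reads called 27 genes at 4-weeks (0.159%) and 98 at 12-weeks (0.695%), with 0 of the 9 complement genes among them. The edgeR test called 0 genes (0%) at each time point. At an unadjusted p under 0.05 DESeq2 gave 4 of 9 at 4-weeks (background 9.08%) and 4 of 9 at 12-weeks (6.65%). The edgeR test gave 3 of 9 (8.09%) and 4 of 9 (12.5%). Without sham replicate 3 of 4-weeks limma called 1 gene (0.00691%) and DESeq2 40 genes (0.313%), with 0 of the 9 complement genes among them.

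**Figure D1:**
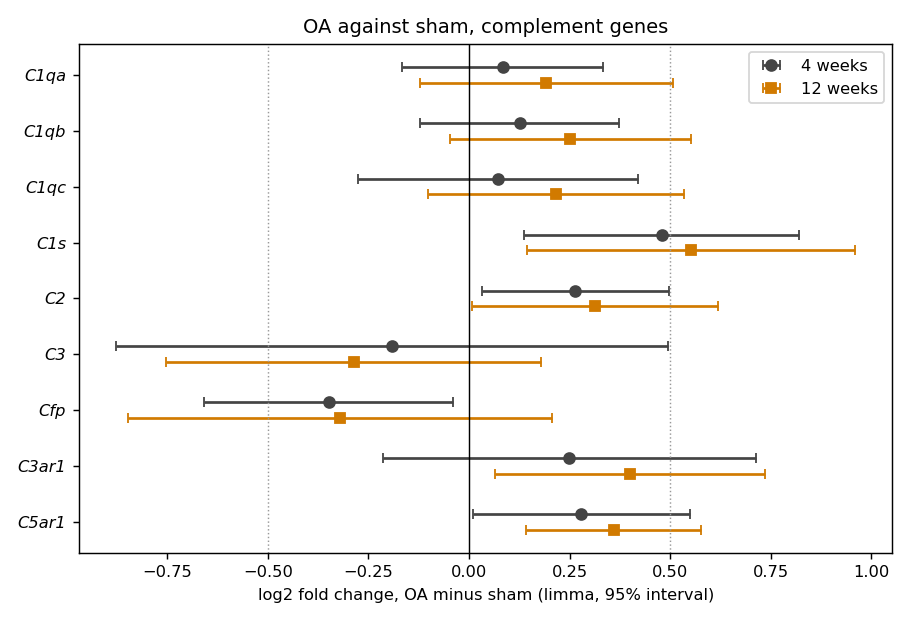
Log2 fold change (OA minus sham, x axis) of each complement gene from limma, with 95% intervals, at 4 weeks (grey circles) and 12 weeks (orange squares). Dotted lines mark 0.5 in either direction, and the points of C1s lie farthest to the right, at 0.48 and 0.55.

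The C1q chains form the recognition part of the classical pathway. Together they took 0.332% ± 0.0293 (SD, n = 5) of reads in OA and 0.323% ± 0.0747 in sham at 4-weeks. At 12-weeks their share was 0.403% ± 0.0419 (SD, n = 4) in OA and 0.349% ± 0.0668 in sham. The A chain gene, C1qa, had 13309, 14631, 15460, 14478 and 12714 normalized reads in the OA libraries of 4-weeks. In sham it had 10564, 13334, 16428, 13629 and 13166. The OA values lay inside the sham range, which ran from replicate 1 to replicate 3. In the 12-weeks libraries C1qa had 17488, 21317, 19307 and 22404 normalized reads in OA. Sham values were 16269, 16746, 15059 and 23076. All 4 OA libraries lay above the sham median, but sham replicate 4 held the highest value of all.

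The log2 fold change of C1qa was 0.08 (SE 0.12, limma adjusted p = 0.850) at 4-weeks, with a 95% interval of -0.17 to 0.33. The value at 12-weeks was 0.19 (SE 0.14, adjusted p = 0.579), with an interval of -0.12 to 0.51. For C1qb it was 0.13 (SE 0.11, limma adjusted p = 0.768) and 0.25 (SE 0.14, adjusted p = 0.459). For C1qc it was 0.07 (SE 0.16, limma adjusted p = 0.905) and 0.22 (SE 0.14, adjusted p = 0.540). The 95% intervals of all 3 chains included 0 at both time points. These small differences depended on single sham libraries. At 4-weeks the fold change was lowest without sham replicate 1 (0.0004 for C1qa, 0.04 for C1qb and -0.04 for C1qc) and highest without sham replicate 3 (0.16, 0.20 and 0.21). At 12-weeks it was lowest without sham replicate 3 (0.12, 0.18 and 0.12) and highest without sham replicate 4 (0.32, 0.38 and 0.35).

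The chains tracked each other across libraries. At 4-weeks Pearson's r of the log2 levels of C1qa and C1qb was 0.985 over 10 libraries (permutation p = 2e-05, adjusted p = 1.33e-04 over 20 relations). Spearman's rho was 0.927 (permutation p = 4.1e-04), and r was 0.956 without the 2 libraries farthest from the median. At 12-weeks r was 0.982 over 8 libraries (exact permutation p = 1.98e-04, adjusted p = 5.67e-04). The rank correlation rho was 0.952 (exact permutation p = 0.00114), and r was 0.980 without the 2 farthest libraries. Within OA and within sham libraries r was 0.982 and 0.994 at 4-weeks and 0.989 and 0.988 at 12-weeks. The other pairs of chains had r between 0.953 and 0.978.

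The ratio of C1qb to C1qa reads, not corrected for length, was nearly constant. At 4-weeks it was 0.826 ± 0.0131 (SD, n = 5) in OA and 0.802 ± 0.0135 in sham (exact permutation p = 0.0317). At 12-weeks it was 0.836 ± 0.0140 (SD, n = 4) and 0.803 ± 0.0245 (exact permutation p = 0.0857). Neither difference passed adjustment over 6 tests of read ratios, which were chosen after the values were seen (adjusted p = 0.0635 and 0.129). The ratio of C1qc to C1qa was 1.12 in sham replicate 3 at 4-weeks and between 0.857 and 0.991 in the other libraries of both time points.

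**Figure D2:**
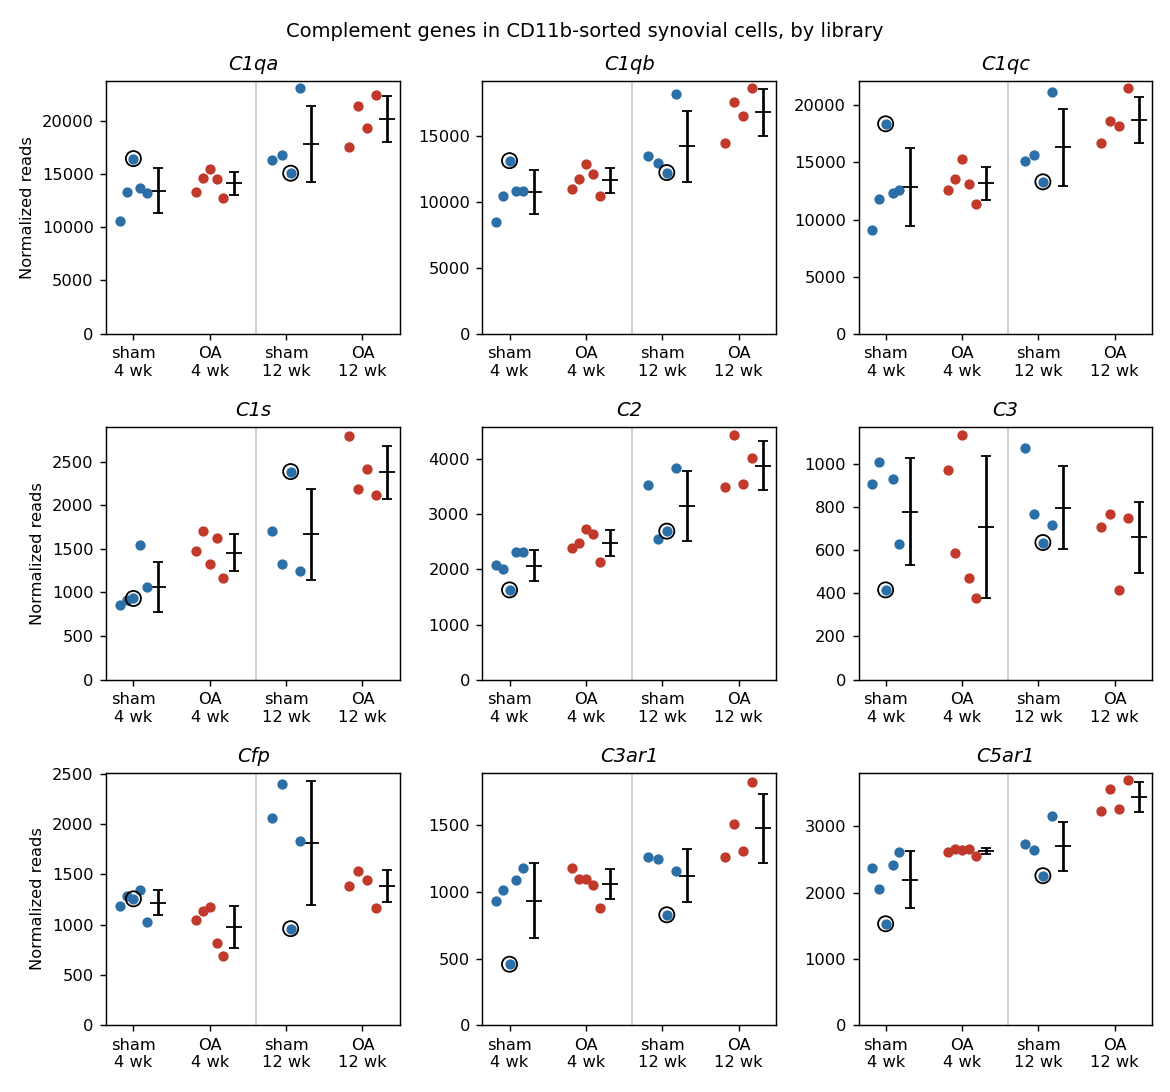
Normalized reads (y axis, from 0) of each complement gene in every sham (blue) and OA (red) library at 4 and 12 weeks, with group means and SD (black bars, n = 5 at 4 weeks and 4 at 12 weeks), and a ring around sham replicate 3. C1qa, C1qb and C1qc show much the same pattern over libraries, and OA and sham do not overlap for C3ar1 and C5ar1 at 12 weeks.

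C1s, the protease that cleaves C4 and C2 once C1q has bound, had the highest fold change of the 9 genes at both time points. The OA libraries of 4-weeks had 1473, 1704, 1326, 1619 and 1168 normalized reads of C1s. Those of sham had 859, 908, 931, 1548 and 1063. All 5 OA libraries exceeded the sham median, and sham replicate 4 reached into the OA range. For 12-weeks the OA values were 2799, 2186, 2411 and 2114 normalized reads. Those of sham were 1705, 1328, 2386 and 1248. Here sham replicate 3 was the 1 sham library inside the OA range.

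The mean of C1s was 37.3% higher in OA at 4-weeks (log2 fold change 0.48, SE 0.16, limma adjusted p = 0.554), with a 95% interval of 0.14 to 0.82. At 12-weeks it was 42.6% higher (0.55, SE 0.18, limma adjusted p = 0.325), with an interval of 0.14 to 0.96. For the gene taken alone, a two-sided exact permutation test gave p = 0.0397 at 4-weeks and p = 0.0857 at 12-weeks. The smallest p that this test allows is 0.00794 with 5 against 5 libraries and 0.0286 with 4 against 4. Such tests were run on 9 genes at 2 time points and are not adjusted for it, whereas the limma p is adjusted over all genes.

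The call for C1s depended on 1 library. Without sham replicate 3 of 12-weeks its log2 fold change was 0.74 and limma called it (adjusted p = 0.0368), among 81 genes called in that fit (0.552%). DESeq2 without that library called C1s (adjusted p = 9.8e-06) and Cfp (adjusted p = 1.47e-04) among 233 genes (1.54%).

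Fibroblast markers moved with C1s. At 4-weeks its log2 level had r = 0.882 with the mean of 13 fibroblast markers over 10 libraries (permutation p = 2.9e-04, adjusted p = 7.25e-04). Spearman's rho was 0.879 (permutation p = 0.0017), and r was 0.790 without the 2 farthest libraries. At 12-weeks r was 0.974 over 8 libraries (exact permutation p = 4.96e-05, adjusted p = 1.98e-04). The corresponding rho was 0.976 (exact permutation p = 3.97e-04), and r was 0.976 without the 2 farthest libraries. Within OA and within sham libraries r was 0.472 and 0.960 at 4-weeks and 0.933 and 0.959 at 12-weeks.

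The fibroblast markers, which encode collagens and other matrix and surface proteins, were compared between the groups in the same way. Averaged over the list, the log2 level at 4-weeks was 10.84 in OA (SD 0.12, n = 5) and 10.56 in sham (SD 0.35), with 10 of 13 markers higher in OA (exact permutation p = 0.135). At 12-weeks OA had 11.35 (SD 0.13, n = 4) and sham 10.99 (SD 0.24), with 11 of 13 higher (exact permutation p = 0.0857). Over 26 tests of marker lists the adjusted p was 0.514 and 0.446. Sham replicate 3 at 12-weeks, whose C1s level lay in the OA range, had a fibroblast mean of 11.35.

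Relative to the fibroblast mean, C1s was 0.20 higher in OA on the log2 scale at 4-weeks (exact permutation p = 0.0873) and 0.19 higher at 12-weeks (exact permutation p = 0.229). Without that reference the differences were 0.48 and 0.55. By the same measure C1r differed by -0.37 at 4-weeks (exact permutation p = 0.0714) and -0.30 at 12-weeks (exact permutation p = 0.0286). C3 differed by -0.47 (exact permutation p = 0.325) and -0.65 (exact permutation p = 0.143). This measure was chosen after the values were seen, and the smallest adjusted p over 18 relative tests was 0.0816.

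**Figure D3:**
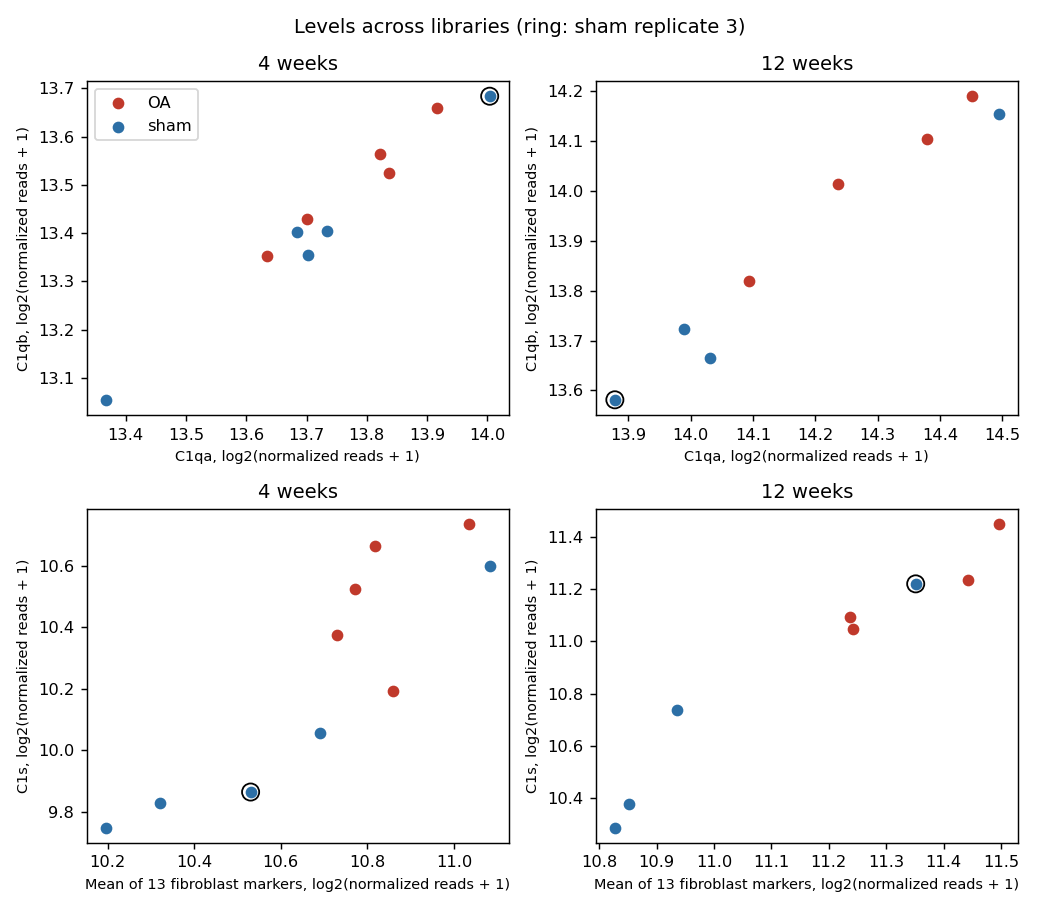
Log2 of normalized reads plus 1 per library at 4 weeks (left) and 12 weeks (right), for C1qb against C1qa (top) and for C1s against the mean of 13 fibroblast markers (bottom), with OA in red, sham in blue and a ring around sham replicate 3. The C1q points fall near a line (r of 0.985 and 0.982), and libraries with a higher fibroblast mean had more C1s (r of 0.882 and 0.974).

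C1r, the partner protease of C1s and its neighbour on chromosome 4, was compared with it. At 4-weeks C1r averaged 2146 ± 179 normalized reads in OA and 2308 ± 398 in sham (SD, n = 5 each) (log2 fold change -0.09, SE 0.11, limma adjusted p = 0.833). At 12-weeks it had 3292 ± 234 (SD, n = 4) and 3182 ± 565 (0.06, SE 0.12, limma adjusted p = 0.838). The ratio of C1s to C1r reads, not corrected for length, was 0.678 ± 0.0736 in OA and 0.465 ± 0.109 in sham at 4-weeks (exact permutation p = 0.0159). At 12-weeks it was 0.720 ± 0.0514 and 0.516 ± 0.0722, without overlap (exact permutation p = 0.0286). The adjusted p over the 6 read ratios was 0.0635 at each time point.

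C2 supplies the protease part of the classical C3 convertase and lies beside Cfb, its counterpart in the alternative pathway. OA values of C2 were 2386, 2489, 2742, 2642 and 2132 normalized reads at 4-weeks. Sham values were 2086, 2017, 1629, 2316 and 2313. The lowest OA library lay inside the sham range. OA values at 12-weeks were 3501, 4450, 3554 and 4022 normalized reads. Against these, sham had 3539, 2548, 2696 and 3847. Here 2 OA libraries exceeded every sham library. The log2 fold change was 0.26 (SE 0.11, limma adjusted p = 0.607, exact permutation p = 0.0397) at 4-weeks and 0.31 (SE 0.14, limma adjusted p = 0.399, exact permutation p = 0.143) at 12-weeks.

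C3, the protein on which the complement pathways converge, varied widely within groups. Normalized reads of C3 in OA were 969, 584, 1132, 469 and 377 at 4-weeks. In sham they were 904, 1006, 415, 929 and 628. The OA libraries spanned the whole sham range. By 12-weeks they were 705, 767, 415 and 749 in OA. The sham values were 1071, 766, 635 and 715. The groups again overlapped. The log2 fold change was -0.19 (SE 0.32, limma adjusted p = 0.874) at 4-weeks, with a 95% interval of -0.88 to 0.50. It was -0.29 (SE 0.21, limma adjusted p = 0.578) at 12-weeks, with an interval of -0.75 to 0.18. Without OA replicate 5 the 4-weeks value was 0.003, and without OA replicate 3 the 12-weeks value was -0.08.

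With the fibroblast mean C3 had r = -0.227 at 4-weeks (10 libraries, permutation p = 0.520, adjusted p = 0.650) and r = -0.577 at 12-weeks (8 libraries, exact permutation p = 0.130, adjusted p = 0.209). Spearman's rho was -0.236 (permutation p = 0.512) and -0.619 (exact permutation p = 0.115). Without the 2 farthest libraries r was 0.219 and -0.789.

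Cfp, which encodes properdin, had a lower mean in OA at both time points. Its OA libraries of 4-weeks had 1043, 1136, 1180, 823 and 691 normalized reads. Its sham libraries had 1191, 1285, 1258, 1348 and 1026. All 5 OA libraries were below the sham median, and 2 were below every sham library. In OA at 12-weeks it had 1381, 1537, 1445 and 1165 normalized reads. In sham it had 2064, 2395, 962 and 1831. Sham replicate 3 was the lowest of the 8 libraries, and the other 3 sham libraries were above every OA library.

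The log2 fold change of Cfp was -0.35 (SE 0.14, limma adjusted p = 0.607, exact permutation p = 0.0635) at 4-weeks. The 12-weeks value was -0.32 (SE 0.24, limma adjusted p = 0.579, exact permutation p = 0.229). Without sham replicate 3 of 12-weeks it was -0.60, with a limma adjusted p of 0.0569, and without sham replicate 2 it was -0.16. With the mean of 5 monocyte markers Cfp had r = 0.512 at 4-weeks (10 libraries, permutation p = 0.136, adjusted p = 0.209) and r = 0.506 at 12-weeks (8 libraries, exact permutation p = 0.201, adjusted p = 0.287). Here rho was 0.503 (permutation p = 0.145) and 0.524 (exact permutation p = 0.197), and r was 0.354 and 0.907 without the 2 farthest libraries.

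C5ar1, the receptor through which C5a acts on myeloid cells, had the smallest limma p of the 9 genes at 12-weeks. Normalized reads of C5ar1 at 4-weeks were 2610, 2664, 2636, 2653 and 2553 in OA. They were 2371, 2055, 1532, 2423 and 2613 in sham. The OA libraries were tightly grouped, and 3 of them exceeded every sham library. Normalized reads at 12-weeks were 3237, 3564, 3261 and 3701 in OA. They were 2739, 2641, 2256 and 3150 in sham. All OA libraries were above all sham libraries, and sham replicate 3 was the lowest library at both time points.

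The log2 fold change of C5ar1 was 0.28 (SE 0.12, limma adjusted p = 0.618, exact permutation p = 0.0238) at 4-weeks, with a 95% interval of 0.01 to 0.55. It was 0.15 there without sham replicate 3. For 12-weeks it was 0.36 (SE 0.098, limma adjusted p = 0.278, exact permutation p = 0.0286), with an interval of 0.14 to 0.58. The adjusted p in DESeq2 was 0.0844. Neutrophil markers, whose cells also carry this receptor, had r = 0.0904 with C5ar1 at 4-weeks (10 libraries, permutation p = 0.831) and r = 0.248 at 12-weeks (8 libraries, exact permutation p = 0.556). Spearman's rho was -0.248 (permutation p = 0.492) and 0.214 (exact permutation p = 0.619), and r was -0.232 and 0.289 without the 2 farthest libraries.

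C3ar1 encodes the receptor for C3a. It had 1175, 1094, 1095, 1053 and 876 normalized reads in OA at 4-weeks. Sham libraries had 930, 1009, 457, 1084 and 1176. Sham replicate 3 had the lowest value, replicate 5 lay just above the highest OA library, and the other sham libraries were within the OA range. It had 1260, 1504, 1305 and 1821 normalized reads in OA at 12-weeks. Sham libraries had 1256, 1242, 827 and 1154. The groups did not overlap, although the lowest OA and the highest sham library nearly met.

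The log2 fold change of C3ar1 was 0.25 (SE 0.21, limma adjusted p = 0.763, exact permutation p = 0.452) at 4-weeks and 0.01 without sham replicate 3. The value at 12-weeks was 0.40 (SE 0.15, limma adjusted p = 0.358, exact permutation p = 0.0286), and 0.26 without sham replicate 3. OA and sham libraries did not overlap for 0 of 9 complement genes at 4-weeks (background 1.87%) and for 2 of 9 at 12-weeks (background 6.29%).

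The macrophage markers as a list, Cd68, Csf1r and Mrc1 among them, averaged 12.47 in OA (log2 level, SD 0.15, n = 5) and 12.33 in sham (SD 0.16) at 4-weeks (exact permutation p = 0.198). At 12-weeks the averages were 12.89 (SD 0.12, n = 4) and 12.82 (SD 0.22) (exact permutation p = 0.771). Relative to that mean, C5ar1 was 0.14 higher in OA on the log2 scale at 4-weeks (exact permutation p = 0.183) and 0.30 higher at 12-weeks (exact permutation p = 0.0286). C2 was 0.12 higher (exact permutation p = 0.0159) and 0.25 higher (exact permutation p = 0.0286). C3ar1 was 0.11 higher (exact permutation p = 0.762) and 0.34 higher (exact permutation p = 0.0286). Cfp differed by -0.49 (exact permutation p = 0.0317) and -0.39 (exact permutation p = 0.171). None of 18 such relative tests with all libraries, chosen after the values were seen, passed adjustment (smallest adjusted p = 0.0816). Without sham replicate 3 the 4-weeks values were 0.08 for C5ar1, 0.11 for C2, -0.06 for C3ar1 and -0.41 for Cfp. The 12-weeks values were then 0.32, 0.29, 0.30 and -0.56 (exact permutation p = 0.0571 for each).

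The receptors and C2 had similar patterns over libraries, which share scaling and depth. C5ar1 had r = 0.894 and 0.872 with C3ar1, and r = 0.898 and 0.861 with C2, at 4 and 12-weeks. Sham replicate 3 of 4-weeks held the lowest value of C5ar1 (1532), C3ar1 (457) and C2 (1629) at that time point. How far r of C5ar1 with C3ar1 and with C2 rested on that library was not tested. C2 and C3ar1 had r = 0.834 at 4-weeks (10 libraries, permutation p = 0.00557, adjusted p = 0.0124) with rho 0.648 (permutation p = 0.0495). This relation rested on sham replicate 3, since r was 0.560 without that library and 0.580 without it and OA replicate 3. At 12-weeks it was 0.670 (8 libraries, exact permutation p = 0.0679, adjusted p = 0.123) with rho 0.667 (exact permutation p = 0.0831), and 0.579 without the 2 farthest libraries.

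C1qa had r = -0.0163 with the macrophage mean at 4-weeks (10 libraries, permutation p = 0.963, rho 0.321 with permutation p = 0.370) and 0.548 without the 2 farthest libraries. Within OA libraries r was 0.952 and within sham libraries -0.682, a difference that was not tested, and over both groups it was 0.684 without sham replicate 3. At 12-weeks r was 0.741 (8 libraries, exact permutation p = 0.0246, adjusted p = 0.0492) with rho 0.714 (exact permutation p = 0.0576). Without the 2 farthest libraries it was 0.563, within OA 0.904 and within sham 0.688. C1s and C3, the remaining relation tested, had r = -0.0194 at 4-weeks (10 libraries, permutation p = 0.955) and -0.395 at 12-weeks (8 libraries, exact permutation p = 0.359).

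The 9 complement genes aside, the genes most like each of them were found among 14411 genes by the lower of their r values at 4-weeks (10 libraries) and 12-weeks (8 libraries). For all 3 C1q chains they were Itm2c, with r between 0.917 and 0.951, and Fcgrt, with r between 0.879 and 0.966. For C1s they were Cdh11 (0.963 and 0.968), a cadherin of fibroblasts, and Sfrp4 (0.946 and 0.949). For C2 they were Shtn1 (0.940 and 0.936) and Cd4 (0.915 and 0.915). For C5ar1 they were Pid1 (0.945 and 0.950) and Atp6ap1 (0.976 and 0.937), and for C3ar1 Sgpp1 (0.949 and 0.959) and Fam151a (0.939 and 0.977). For Cfp they were Nup210 (0.898 and 0.906) and Smpd3 (0.870 and 0.875). C3 had the least similar partners, AABR07025140.1 (0.842 and 0.851) and Serpinb10 (0.759 and 0.785).

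**Figure D4:**
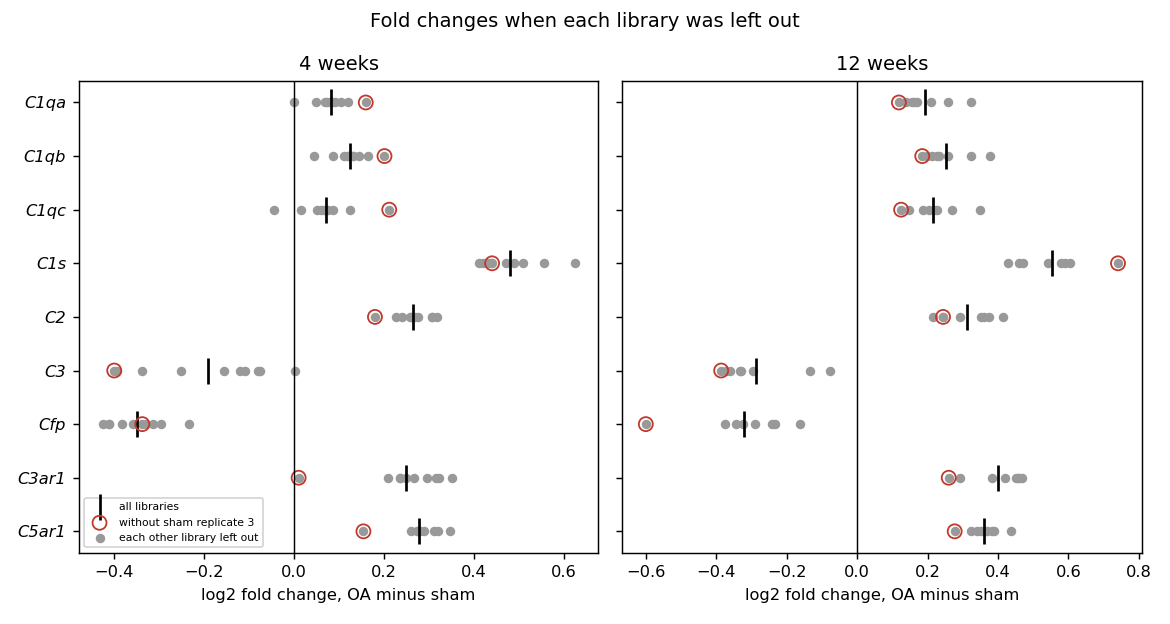
Log2 fold change (OA minus sham, x axis) of each complement gene at 4 weeks (left) and 12 weeks (right) with all libraries (black bar) and with each library left out (grey points), with a red ring for the fit without sham replicate 3. Without that library C3ar1 is at 0.01 at 4 weeks, and C1s is at 0.74 and Cfp at -0.60 at 12 weeks.

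Whether the OA difference changed with time was tested as the difference between the fold changes at 12 and 4-weeks. In limma 0 of 9 complement genes were called (background 0%), and 0 of 9 had an unadjusted p under 0.05 (background 3.18% of 14732 genes). The differences ran from -0.06 for C3 (95% interval -0.96 to 0.83) to 0.18 for C3ar1 (-0.41 to 0.77). For C1s the difference was 0.11 (-0.44 to 0.65), for C5ar1 0.11 (-0.22 to 0.44) and for C1qa 0.14 (-0.27 to 0.55).

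Levels of the 4 groups were set side by side in counts scaled to a common library total (CPM), with no test, since pool size also differed between the time points. For C1qa, C1qb, C1qc, C1s and C2 the order of the means was OA at 12-weeks, sham at 12-weeks, OA at 4-weeks and sham at 4-weeks. The 4-weeks groups of C1qc were nearly equal, and its unadjusted share of reads was 0.11223% in OA and 0.11228% in sham. C1qa had 1497 ± 167, 1313 ± 263, 1186 ± 89.5 and 1150 ± 213 CPM in that order. C5ar1 had 256 ± 18.1 CPM in OA at 12-weeks, 220 ± 4.10 in OA at 4-weeks, 199 ± 26.3 in sham at 12-weeks and 187 ± 32.2 in sham at 4-weeks, and C3ar1 had the same order. Cfp was led by both sham groups (134 ± 44.6 at 12-weeks and 104 ± 11.7 at 4-weeks), followed by OA at 12-weeks (103 ± 11.1) and OA at 4-weeks (81.9 ± 17.5). C3 went from 65.9 ± 20.1 in sham at 4-weeks to 49.0 ± 12.4 in OA at 12-weeks. Neighbouring groups in these orders overlapped in range, except C5ar1 in OA at 12-weeks and OA at 4-weeks.

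Of 50 other complement genes listed, 45 were found and 30 passed the filter on low values at each time point. In limma 0 of 30 were called at 4-weeks and 0 of 30 at 12-weeks (background 0% at each). At 4-weeks 3 of 30 had an unadjusted p under 0.05 (background 7.92%), of which Vsig4 was higher and Serping1 and Susd4 lower in OA. At 12-weeks there were 6 of 30 (background 12.4%), of which C5ar2, Cd55, Vsig4 and Calr were higher and Masp2 and Vtn lower. The median log2 fold change of the 30 genes was 0.01 at 4-weeks and -0.01 at 12-weeks, with 15 and 14 of 30 higher in OA. OA and sham libraries did not overlap for 2 of 30 at 4-weeks (Susd4 and Vsig4, background 1.87%). The same held for 2 of 30 at 12-weeks (Masp2 and Calr), near the background of 6.29%.

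Vsig4, a macrophage receptor for C3b and iC3b, had the highest fold change of the 30 tested genes at both time points with all libraries. Without sham replicate 3 of 12-weeks the fold change of Ptx3, a pentraxin, was above it (log2 fold change 1.03, limma adjusted p = 0.169, against 0.66 for Vsig4). Levels of Ptx3 were low, from 20.4 to 28.8 normalized reads in OA and from 8.04 to 42.0 in all sham libraries of 12-weeks. Vsig4 averaged 3341 ± 796 normalized reads in OA and 1915 ± 304 in sham at 4-weeks (SD, n = 5 each), without overlap. Its log2 fold change was 0.79 (SE 0.16, limma adjusted p = 0.346, exact permutation p = 0.00794), and DESeq2 called it (adjusted p = 0.00261). At 12-weeks it had 8184 ± 2052 (SD, n = 4) and 5391 ± 1887, with overlap (0.65, SE 0.28, limma adjusted p = 0.391, exact permutation p = 0.114).

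Inhibitors of complement differed in direction. Cd55, a brake of C3 convertases on the cell surface, averaged 881 ± 87.2 normalized reads in OA and 683 ± 160 in sham (SD, n = 4 each) at 12-weeks (log2 fold change 0.39, SE 0.14, limma adjusted p = 0.343). Limma called it without sham replicate 3 (adjusted p = 0.0343). Serping1, the C1 inhibitor, had 1196 ± 156 (SD, n = 5) in OA and 1577 ± 359 in sham at 4-weeks (-0.37, SE 0.16, limma adjusted p = 0.611). Susd4, another inhibitor, had 201 ± 25.2 and 293 ± 71.2 at 4-weeks, without overlap (-0.52, SE 0.14, limma adjusted p = 0.403). Without sham replicate 3 its log2 fold change was -0.38 (limma adjusted p = 0.281). Vtn, vitronectin, had 457 ± 103 in OA and 612 ± 65.7 in sham at 12-weeks (-0.44, SE 0.15, limma adjusted p = 0.332).

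Masp2 encodes a protease of the lectin pathway that cleaves C4 and C2, as C1s does. At 12-weeks it averaged 164 ± 18.1 normalized reads in OA and 197 ± 9.86 in sham (SD, n = 4 each), without overlap (log2 fold change -0.27, SE 0.10, limma adjusted p = 0.359, exact permutation p = 0.0286). At 4-weeks it had 114 ± 24.2 (SD, n = 5) and 126 ± 8.03, with overlap (-0.17, SE 0.15, limma adjusted p = 0.765).

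Among receptors and binding proteins, C5ar2 is the neighbour of C5ar1 and also binds C5a. It averaged 362 ± 10.7 normalized reads in OA and 294 ± 63.7 in sham (SD, n = 4 each) at 12-weeks (log2 fold change 0.32, SE 0.13, limma adjusted p = 0.373). At 4-weeks it had 231 ± 21.7 (SD, n = 5) and 207 ± 26.5 (0.17, SE 0.10, limma adjusted p = 0.691). Calr, which binds C1q, had 10877 ± 636 and 9193 ± 622 at 12-weeks, without overlap (0.24, SE 0.080, limma adjusted p = 0.319). Itgam and Itgb2 encode the chains of complement receptor 3, and Itgam is the CD11b of the sort. Their limma adjusted p lay between 0.542 and 0.999.

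The other components that form the C3 convertases were at very different levels. C4b averaged 3792 ± 298 normalized reads in OA and 4221 ± 408 in sham (SD, n = 5 each) at 4-weeks (log2 fold change -0.15, SE 0.088, limma adjusted p = 0.672). At 12-weeks it had 7643 ± 550 (SD, n = 4) and 8158 ± 1871 (-0.07, SE 0.15, limma adjusted p = 0.864). Its near copy C4a was at no more than 3.52 normalized reads in any library, and how reads were split between the copies is uncertain. Cfb reached at most 6.96 normalized reads at 4-weeks and 2.54 at 12-weeks.

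**Figure D5:**
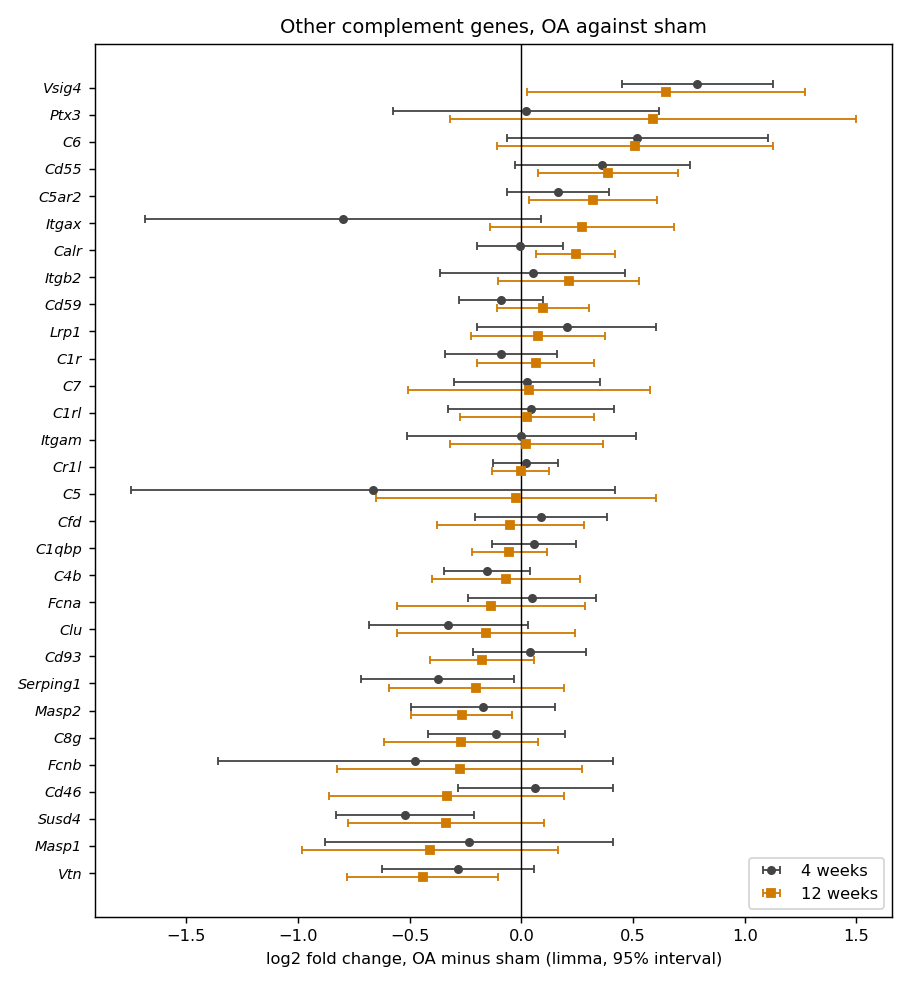
Log2 fold change (OA minus sham, x axis) with 95% intervals from limma of the 30 other complement genes tested, at 4 weeks (grey circles) and 12 weeks (orange squares). Vsig4 lies highest, at 0.79 and 0.65, and for most of the others the interval includes 0.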

How the data were processed

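RNA was measured in 18 libraries of CD11b/c-positive synovial cells, grouped by surgery and week from the sample labels. The study's text gives 5 replicates at both time points, and the labels give 4 per group at 12 weeks. Per the labels and the paper, the authors used fastp 0.20.0, STAR 2.7.6a on Rnor_6.0, Sambamba, featureCounts 2.0.0 and DESeq2 1.24.0, and whether counting used strand is not given in the sources used here. The authors deposited DESeq2-normalized reads, a signal scaled within each week. The deposited values were whole multiples of 1 read (100% within 0.01), so the count of reads was recovered. The deposited tables also hold the authors' own DESeq2 log2 fold changes, test scores and p-values, which were not used.

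OA was compared with sham in limma 3.58.1 (R 4.3.3) with a trend on log2 of normalized reads plus 1, for genes with a mean of at least 10, and called at an absolute log2 fold change of at least 0.5 and a Benjamini-Hochberg adjusted p under 0.05. DESeq2 1.42.0 and edgeR 4.0.16 on recovered reads were alternatives, as were pseudocounts of 0.5 and 5, a looser filter (any read) and a stricter one (mean of 50), TMM scaling, a replicate block, sample quality weights and leaving out each library. DESeq2 was first run on genes with a mean of at least 10, and after that output was seen it was changed to all genes with a read. Exact permutation tests were two-sided, and those for correlations over 10 libraries used 100000 resamples. The difference between weeks used log2 CPM with TMM scaling and a prior count of 2. Named genes were all 9 members, and of the other complement genes reported those called, those with the 4 smallest limma p per week, and C5ar2, Vsig4, Itgam, Itgb2, Cfb, C1r, C4a and C4b. A result within these rules is not reported here. Ptx3 and the genes below the filter were named after their values were seen. The members and lists were chosen with earlier results of these data known. The tests were tested on simulated data. P-values measure the spread between pools of rats. Replicate numbers did not pair the libraries (correlation of same-numbered deviations from -0.131 to 0.298). No pair of replicates was a repeated deposit (chi-square per degree of freedom 5.84 to 38.8 over 32 pairs). Promoters and neighbours come from RefSeq for GRCr8, which differs from the authors' build. Floors of 3 reads cover counting error only, whereas the 95% intervals of fold changes come from the spread between libraries.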

Additional observations from a re-analysis of the deposited data

Results flagged for a closer look

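In a check of 84 groups of libraries for a value far from the rest of its group, 2 values stood apart, and chance alone marks about 1 in 20 such groups. Both were in libraries numbered sham replicate 3. Cd55 had 919.592 normalized reads in sham replicate 3 at 12 weeks, against 582.62 to 640.094 in the other sham libraries, only just past the limit for such a gap. Susd4 had 420.097 normalized reads in sham replicate 3 at 4 weeks, against 251.393 to 269.491 in the other sham libraries.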

How the results depend on the processing

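Limma called 0 genes at 4 weeks and 0 at 12 weeks, and the counts depended on the tool and on sham replicate 3. At 4 weeks DESeq2 called 27 genes and 40 without sham replicate 3, while edgeR without that library, the replicate block and sample quality weights each called 1, and leaving out single libraries gave 0 to 1. At 12 weeks DESeq2 called 98 and 233 without sham replicate 3, edgeR 78 without it, and leaving out single libraries gave 0 to 81, with 81 without sham replicate 3 and 1 without sham replicate 4. Of the 9 complement genes at 12 weeks, DESeq2 without sham replicate 3 called 2 (C1s and Cfp, background 1.54%). EdgeR without that library called 1 of 9, among 78 of 14666 genes. Leaving out single libraries in limma gave 0 to 1, the 1 being without sham replicate 3 (background 0.552%). Of the other complement genes with an adjusted p in DESeq2 at 4 weeks, 1 of 37 was called (background 0.159%). Without sham replicate 3 it was 1 of 28 (background 0.313%). With no fold-change minimum it was again 1 of 37, and the share of all genes is not given there. At 12 weeks DESeq2 without sham replicate 3 called 1 of 30 (background 1.54%), and edgeR without it called 1, among 78 of 14666 genes. Leaving out single libraries in limma gave 0 to 1, with 1 of 30 without sham replicate 3 (background 0.552%). These fits without sham replicate 3 in DESeq2 and edgeR, and DESeq2 without a fold-change minimum, were added after the data were seen. The cause of these differences was not tested. The replicate numbers did not pair the libraries, with 0 of 5 at 4 weeks and 1 of 4 at 12 weeks correlating best with their own number, and the block changed no call of a complement gene.

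The sign of small fold changes turned in single fits. Leaving out single libraries gave -0.0439 to 0.21 for C1qc and -0.40 to 0.003 for C3 at 4 weeks. Calr at 4 weeks was 0.0508 in DESeq2 and 0.0457 in edgeR without sham replicate 3 and 0.0458 with weights, and -0.046 to 0.0492 with single libraries left out. Itgb2 at 4 weeks was -0.008 in DESeq2, -0.0263 in edgeR, -0.1484 and -0.1514 in those without sham replicate 3 and -0.0522 with weights, and -0.1255 to 0.2117 with single libraries left out, and Itgam -0.2453 to 0.1565. At 12 weeks C4b was 0.0349 and 0.0498 without sham replicate 3 in DESeq2 and edgeR and -0.2048 to 0.052 with single libraries left out, and C1r -0.0397 to 0.1653. Itgam at 12 weeks was -0.1321 and -0.1175 without sham replicate 3 in DESeq2 and edgeR and -0.1118 with weights, and -0.1394 to 0.1012 with single libraries left out. The difference between weeks ranged over single libraries left out from -0.0275 to 0.2993 for C1s (also -0.0175), -0.016 to 0.1831 for C2, -0.2581 to 0.1479 for C3 (positive also at 0.0013, 0.0862, 0.087, 0.1368 and 0.1401) and -0.2137 to 0.218 for Cfp (also -0.0585), which was -0.036 in DESeq2, -0.0363 in edgeR and -0.091 with weights. Of 360 values of the complement genes' fold changes under alternatives, 354 kept their direction and their status as called or not called. The side of the fold-change minimum was not part of this count, and C1s crossed that minimum in single fits. Without sham replicate 4 its log2 fold change went from 0.55 to 0.43 at 12 weeks and from 0.48 to 0.62 at 4 weeks. In the shallowest library 3 reads correspond to 6.96 normalized reads, so lower levels could not be told from 0 there.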

Other observations

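Among the 45 other complement genes found, 15 were below the filter on low values at each time point, among them Cr2, C8a, C8b, C9, Mbl1 and Cpn1. At 4 weeks 13 of the 15 had their highest value in sham replicate 3, the shallowest library, where they reached up to 39.5 normalized reads, against at most 10.7 in the other libraries. At 12 weeks 2 of the 15 had their highest value in that replicate number, and the highest value was 12.9.

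Of 13 lists of cell type markers, the synovial lining macrophage list (4 genes found, Vsig4 among them) had a mean log2 level of 12.23 in OA and 11.76 in sham at 4 weeks (exact permutation p = 0.00794) and 12.70 and 12.18 at 12 weeks (exact permutation p = 0.0286), and skeletal muscle markers had 7.43 and 6.97 at 12 weeks (exact permutation p = 0.0286). After adjustment over 26 tests the smallest adjusted p was 0.206. The lists of neutrophil, monocyte, dendritic cell, T and NK cell, B cell, mast cell, endothelial, adipocyte and erythroid markers had exact permutation p between 0.0794 and 0.937.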
